A study of Mus musculus with 2 samples.

Results

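The cells described here are collagen-expressing stromal cells of the embryonic mouse mitral leaflet, labelled fibroblasts, that carry transcripts of Ccn3, Tcf21 or Gpc6. They were chosen from the read-out itself. A barcode had to hold at least 500 genes, at least 1000 UMIs (unique molecular identifiers, each standing for 1 captured transcript) and under 20% mitochondrial UMIs. It then counted as stromal when Col1a1, Col1a2 and Col3a1 together gave at least 30 of every 10000 UMIs, Pecam1, Cdh5 and Egfl7 together gave at most 2 UMIs, and neither Mki67 nor Top2a was detected. A stromal cell was a member when Ccn3, Tcf21 and Gpc6 together gave at least 3 UMIs and more than each of 4 other gene sums, which define the Matn4/Col9, Sfrp2/Angptl7, Dlk1/Smoc2 and Dpep1/Fmo2 groups. This gave 1049 members of 17162 kept cells, 637 of 10759 in the control library and 412 of 6403 in the mutant library.

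The leaflets came from embryos at E17.5, late in gestation, and the study asked what the loss of DICER1 does to the developing valve. The control library was made from wild-type embryos and the mutant library from embryos labelled Nfatc1-Cre, Dicer loxp/loxp (both Dicer alleles floxed), with 3-4 hearts pooled for each genotype. Tissue was dissociated with 0.05% trypsin, viable cells were sorted with 7-AAD, and 3′ ends were sequenced in droplets. Nfatc1-Cre acts in the endocardial lineage, so cells that reach the leaflet from elsewhere need not carry the deletion, and nothing in the files marks which cells recombined. Each genotype has 1 library and no replicate, so no test between genotypes was possible, and genotype, pool and library preparation cannot be told apart. The bracketed ranges below are exact 95% intervals and cover counting error only, not the spread between embryos.

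Tcf21 encodes a basic helix-loop-helix factor that marks epicardium-derived progenitors of cardiac fibroblasts and is needed for their formation. Ccn3 encodes a secreted matricellular protein of the CCN family, and Gpc6 encodes a glypican, a heparan sulfate proteoglycan held at the cell surface. Fibroblasts of a leaflet produce collagens and elastic fibres and can lie next to mural cells, the pericytes and smooth muscle cells of small vessels, with which they share several contractile genes. DICER1 cuts microRNA precursors into mature microRNAs, which lower the stability or translation of messages that pair with their seed.

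The libraries differed in ways that touch every value below. Total UMIs were alike, 70221728 in the control and 69475632 in the mutant library, but the mutant library spread them over fewer barcodes, and the median member held 6831 UMIs in the control and 11430.5 in the mutant library. Median genes per member were 2531 and 3466, and the median mitochondrial share was 2.88% and 3.56%. The pools also differed in sex: 606 control members were female-type by Xist and Y-linked transcripts, none was male-type and 31 were open, against 156 female-type, 169 male-type and 87 open in the mutant library. The libraries shared 19 barcode sequences, of which 0 belonged to members.

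The 3 rule genes were spread unevenly over the members. Tcf21 was detected in 91.5% of control and 94.2% of mutant members, Gpc6 in 79.6% and 86.4%, and Ccn3 in 61.4% and 76.9%. All 3 were detected together in 44.3% of control and 65.5% of mutant members. The summed UMIs of the 3 genes had a median of 7 in the control and 13.5 in the mutant library. At the threshold, 54 control and 14 mutant members had a sum of exactly 3, while 53 and 18 stromal cells with a sum of 2 that was still the highest stayed outside. Fhl1 stood at 186 CPM (UMIs per 1000000 UMIs of the summed cells) just inside and 154 CPM just outside in the control library, and at 315 and 238 CPM in the mutant library. Msc stood at 41.0 CPM just inside against 6.84 CPM just outside in the control library, and at 16.6 against 10.3 CPM in the mutant library. Sct stood at 6.31 against 17.1 CPM and at 16.6 against 0 CPM. The summed cells held 316964 UMIs just inside and 292459 just outside in the control library, and 60315 and 96852 in the mutant library. The Msc and Sct values at the threshold thus rest on few UMIs, and no direction is read from them. A further 74 control and 32 mutant cells had at least 3 such UMIs but shared the highest sum with another group and stayed outside.

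The markers Msc, Fhl1 and Sct, which the rule did not use, were compared with the other groups as a description. Msc encodes musculin, a repressor of the same helix-loop-helix class as Tcf21, Fhl1 a LIM-domain protein of muscle and fibroblasts, and Sct the peptide hormone secretin. Fhl1 stood at 322 CPM (306 to 339) in control and 414 CPM (395 to 433) in mutant members, against 200 and 237 CPM in Dlk1/Smoc2 cells and 66.8 and 60.3 CPM in Matn4/Col9 cells. Sct stood at 67.1 CPM (59.7 to 75.2) and 85.0 CPM (76.8 to 93.8), against 29.2 and 32.0 CPM in Dlk1/Smoc2 cells. It was near 0 in Matn4/Col9 cells, with 0.554 and 0 CPM. Msc stood at 44.2 CPM (38.2 to 50.9) and 50.7 CPM (44.5 to 57.6), against 27.2 and 27.7 CPM in Dlk1/Smoc2 cells. In the small Dpep1/Fmo2 group Msc stood at 52.9 CPM in the 22 control cells and at 14.7 CPM in the 14 mutant cells. Those cells held only 113421 and 67992 UMIs, so both values rest on few UMIs. They do not show whether Msc separates the members from that group.

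Free RNA was looked for in endothelial cells, where free RNA and the cells' own transcripts cannot be told apart. Each cell was first thinned to 2000 UMIs. Tcf21 was then detected in 64.9% (61.0 to 68.6) of control and 67.9% (63.1 to 72.5) of mutant members, against 0.559% and 0.966% of endothelial cells. Ccn3 was detected in 36.1% and 48.8% of members against 3.46% and 5.51% of endothelial cells, and Gpc6 in 46.3% and 41.5% against 1.52% and 0.338%. The rule selected members on these 3 genes at full depth, so their high detection in members follows from the selection. Msc reached 9.27% and 9.20% of members and 0 of 1968 and 0 of 2070 endothelial cells. Thinning left out 11 control and 10 mutant members, and the median depth of endothelial cells before thinning was 5864 and 8782 UMIs. Unthinned, Ccn3 was found in 8.48% and 14.2% of endothelial cells, the highest of the 6 markers in both libraries. Whether this was free RNA or expression by the endothelial cells was not tested.

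**Figure D1:**
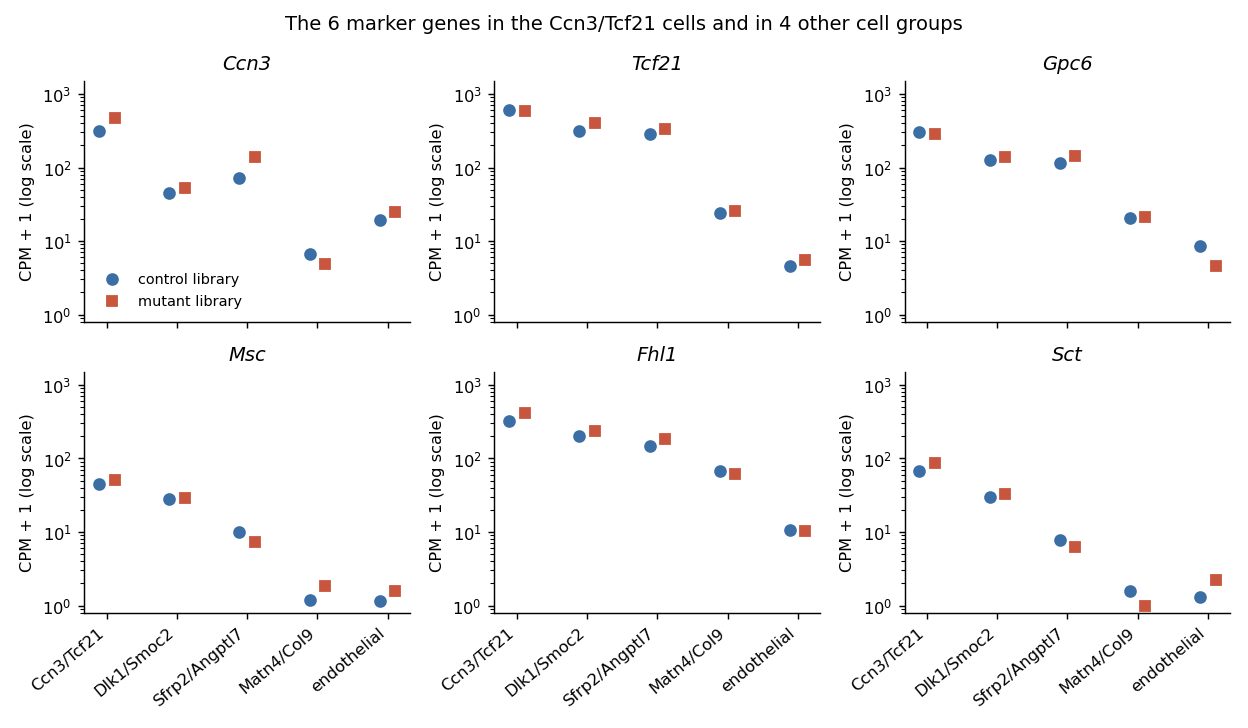
Summed level of each of the 6 marker genes, as CPM + 1 on a log axis, in the Ccn3/Tcf21 cells, 3 other stromal groups and endothelial cells, with control as circles and mutant as squares (1 library each). Fhl1, Msc and Sct, which did not enter the selection, were highest in the Ccn3/Tcf21 cells of these 5 groups in both libraries, and all 6 markers were lowest in Matn4/Col9 or endothelial cells.

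The rule genes lie on different chromosomes. In the GENCODE annotation of GRCm38, Ccn3 spans chr15:54745702-54754039 on the plus strand, Tcf21 spans chr10:22817281-22820174 on the minus strand and Gpc6 spans chr14:116925315-117976544 on the plus strand. Fhl1, at chrX:56731787-56793346 on the plus strand, is X-linked, and the pools differed in sex. Within the mutant library, Fhl1 was higher in male-type than in female-type members by 0.19 on the log2 scale.

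As a share of stromal cells, the members made up 15.6% (14.5 to 16.8) in the control and 23.7% (21.7 to 25.8) in the mutant library, with exact Clopper-Pearson intervals. The denominators moved as well: stromal cells were 37.9% (37.0 to 38.9) of kept control cells and 27.2% (26.1 to 28.3) of kept mutant cells. Over all kept cells the members made up 5.92% (5.48 to 6.38) and 6.43% (5.85 to 7.06), and those intervals overlap. The Dlk1/Smoc2 cells made up 21.5% of control and 35.8% of mutant stroma, and the Matn4/Col9 cells 24.7% and 15.6%. Among members and Dlk1/Smoc2 cells together, members were 42.05% (39.5 to 44.6) in the control and 39.8% (36.8 to 42.9) in the mutant library, again with overlapping intervals. The higher share of stroma in the mutant library was therefore shared with the Dlk1/Smoc2 cells and went with fewer Matn4/Col9 and Sfrp2/Angptl7 cells.

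The rule needs at least 3 UMIs, and mutant cells were sequenced more deeply. With every cell thinned to 2000 UMIs and the rule applied again, members were 7.75% (6.99 to 8.58) of 4475 control stromal cells and 13.2% (11.8 to 14.8) of 2018 mutant stromal cells. Those stromal counts exceed the 4081 and 1739 at full depth. The caps on endothelial UMIs and on Mki67 and Top2a are easier to pass after thinning, so the denominators are not the same cells. The share was lower than with all UMIs in both libraries, and the mutant library still had the higher one. With female-type cells alone, the shares were 15.8% in the control and 19.7% in the mutant library. Whether the trypsin digestion released these cells equally from both pools was not tested.

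**Figure D2:**
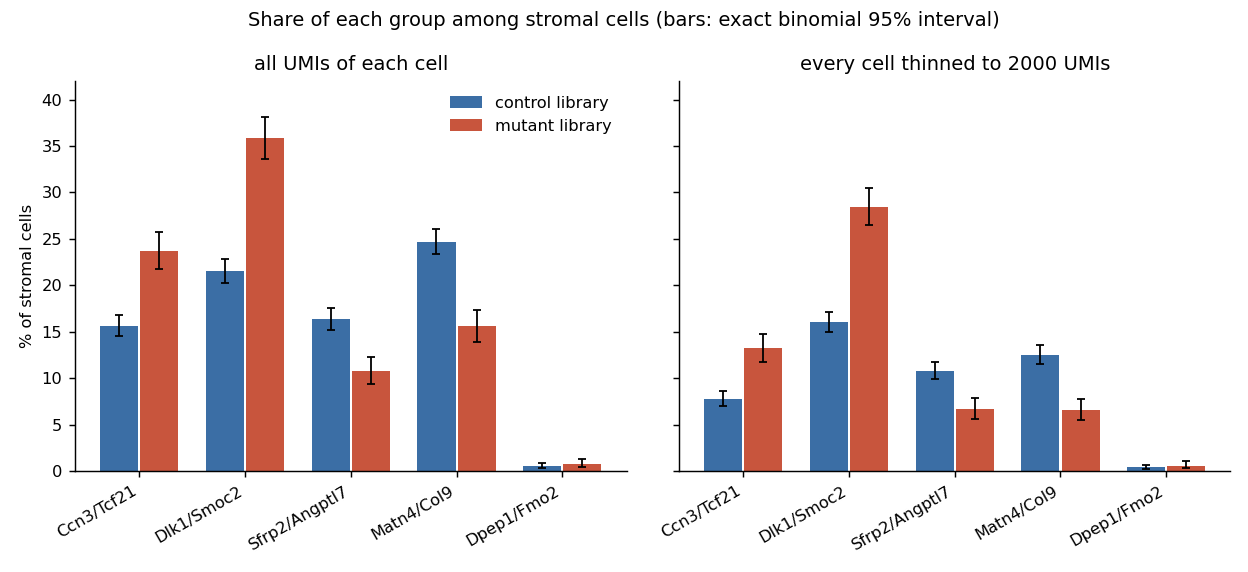
Share of each rule-defined group among stromal cells (%) in the control and mutant library, with all UMIs (left) and with every cell thinned to 2000 UMIs (right), and exact binomial 95% intervals that cover counting error only. Ccn3/Tcf21 and Dlk1/Smoc2 cells took a larger share in the mutant library in both panels, and Sfrp2/Angptl7 and Matn4/Col9 cells a smaller one.

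The fibroblast label was checked against matrix and mural genes. Dcn, a small leucine-rich proteoglycan of fibroblasts, stood at 1810 CPM in control and 2383 CPM in mutant members. Postn, a matricellular protein of valve mesenchyme, stood at 3334 and 4022 CPM, and Pdgfra, the growth factor receptor typical of fibroblasts, at 118 and 130 CPM. In Dlk1/Smoc2 cells Postn was lower, at 2137 and 2559 CPM. Col1a1 was at least 2-fold lower in members than in Dlk1/Smoc2 cells, at 2164 and 2398 CPM against 4870 and 5706 CPM. Mural genes were present beside them. The 14 genes of the mural list summed to 2348 CPM in control and 2455 CPM in mutant members, against 1065 and 1137 CPM over all kept cells. Sfrp2/Angptl7 cells came close in the sum, with 1851 and 2174 CPM. Matn4/Col9 cells had 882 and 832 CPM and Dlk1/Smoc2 cells 606 and 850 CPM. The contractile genes Acta2 and Tagln were large parts of the sums of members and Sfrp2/Angptl7 cells. The pericyte genes Rgs5 and Kcnj8 differed more, at 187 and 300 CPM and 63.9 and 91.6 CPM in members. In Sfrp2/Angptl7 cells they stood at 34.2 and 22.3 CPM and at 3.04 and 2.13 CPM. All 14 list genes were above 0 in members of both libraries, but Myh11, the smooth muscle myosin, stood at 0.453 and 3.00 CPM, and Vtn, a pericyte gene, at 0.227 and 0.642 CPM. The cells were thus collagen-expressing cells with a contractile and partly pericyte-like set of genes, and the part played by mural cells or doublets in that set was not tested.

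Markers of other cell types were summed in the same way. The rule itself caps Pecam1, Cdh5 and Egfl7, so their low level in members is no measurement. The 9 endothelial genes outside the rule summed to 505 CPM in control and 453 CPM in mutant members, against 1555 and 1703 CPM over all kept cells and 3888 and 4267 CPM in endothelial cells. The 12 epicardial genes summed to 68.4 and 24.2 CPM, and in the mutant library Krt8, Krt18, Lrrn4, Muc16 and Bnc1 were at 0. Macrophage, melanocyte and Schwann lists summed to 134 and 156, 45.3 and 25.7, and 156 and 180 CPM. A small number of members held large amounts of foreign transcripts. The 12 cardiomyocyte genes summed to 1024 and 945 CPM, with 1 control member at 57281.4 CPM. Erythroid genes summed to 282 and 1462 CPM, granulocyte genes to 10.4 and 581 CPM, and the highest single members stood at 369520.2 CPM for erythroid and 151885.6 CPM for granulocyte genes, both in the mutant library. Members rich in such transcripts numbered 13 in the control and 8 in the mutant library. Scrublet called 11 control and 6 mutant members doublets, and these were kept, as the rule gives it.

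Only a few genes set the members apart from all 4 other stromal groups. Of 6069 genes with a mean of at least 20 CPM, 9 (0.148%) were at least 2-fold above each of the 4 groups in both libraries. They were Ccn3, Ccl2, Rgs5, Cox4i2, Sct, Fabp7, Smagp, Sele and Pf4, of which Ccn3 belongs to the rule. Rgs5, a regulator of G protein signalling typical of pericytes, stood at 187 CPM in control and 300 CPM in mutant members, against at most 78.8 and 98.4 CPM in any other group. Cox4i2, a subunit of cytochrome oxidase, stood at 194 and 219 CPM, against at most 83.0 and 95.9 CPM. Fabp7, a fatty acid binding protein that also marks pericytes and glia, stood at 42.4 and 64.2 CPM, against at most 18.04 and 28.2 CPM. Sele, a selectin best known from endothelium, and Smagp, a small membrane glycoprotein, stood at 25.8 and 23.3 CPM and at 29.9 and 28.7 CPM. Smagp alone of the 9 was higher in endothelial cells than in members, at 132 and 138 CPM, while Sele stood at 2.28 and 1.57 CPM there. The part of free RNA in the members' Smagp was not tested.

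2 of the 9 genes rested on few cells. Ccl2, a chemokine that attracts monocytes, stood at 46.2 and 76.4 CPM, and 5 cells held 40.2% of its control and 43.1% of its mutant UMIs. Pf4, a platelet and macrophage chemokine, stood at 34.9 and 22.7 CPM, with 47.4% and 41.5% of its UMIs in 5 cells. Without the members rich in other types, 7 genes stood 2-fold above every group. The Dpep1/Fmo2 group holds only 22 and 14 cells, and with it left out Rasl12, a small GTPase of the Ras-like family, and Gpc6 also met the criterion.

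Just below the 2-fold line were genes of several functions. Tubb2b, a tubulin, stood at 146 and 164 CPM in members against at most 77.3 and 70.0 CPM elsewhere. Ccnd1, which encodes cyclin D1, stood at 573 and 581 CPM against at most 310 and 319 CPM. Map1b, a microtubule-associated protein, stood at 693 and 593 CPM against at most 385 and 345 CPM. Sh2d3c, Dusp4, Rapgef5 and Trim47 were also higher in members than in each other stromal group in both libraries, at between 19.04 and 91.3 CPM. In endothelial cells Sh2d3c stood at 57.0 and 65.5 CPM, Rapgef5 at 161 and 152 CPM and Trim47 at 109 and 113 CPM, all above the members. Dusp4 stood at 2.28 and 2.40 CPM there. The part of free RNA in these values was not tested.

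Across 6069 genes the members were most like the Dlk1/Smoc2 cells. The Pearson correlation of log2 (CPM + 10) across genes was 0.976 in the control and 0.973 in the mutant library with Dlk1/Smoc2 cells, 0.963 and 0.953 with Sfrp2/Angptl7 cells, and 0.915 and 0.897 with Matn4/Col9 cells. Genes are not independent replicates, and the groups of a library share its free RNA. The correlation with the Dpep1/Fmo2 group was 0.887 and 0.814.

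Tagln, Acta2 and Myl9 were higher, and most epicardial list genes lower, in members than in Dlk1/Smoc2 cells. Of 6127 genes, 45 (0.734%) were at least 2-fold higher in members in both libraries and 78 (1.27%) at least 2-fold lower. Tagln, the actin-binding protein transgelin, stood at 746 and 637 CPM in members against 66.9 and 120 CPM in Dlk1/Smoc2 cells. Acta2, smooth muscle actin, stood at 924 and 904 CPM against 153 and 182 CPM. Among 15 contractile genes, 3 were 2-fold higher in both libraries, the third being the myosin light chain Myl9 at 229 and 200 CPM against 72.7 and 80.5 CPM. In Sfrp2/Angptl7 cells Tagln was higher than in members, at 892 and 1064 CPM, and Acta2 stood at 718 and 840 CPM.

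Signalling and growth genes were also among the 45. Smad6, an inhibitory Smad of BMP signalling, stood at 62.1 and 54.0 CPM against 16.8 and 13.9 CPM, and Id3 and Id4, targets of the same pathway, were at least 2-fold higher. Hmga2, a chromatin protein of growing embryonic tissue, stood at 119 and 147 CPM against 37.2 and 41.8 CPM. Itga1, a collagen-binding integrin, stood at 305 and 361 CPM against 108 and 133 CPM, and Tnc, which enters the rule of the Sfrp2/Angptl7 group, at 89.1 and 118 CPM against 30.1 and 37.5 CPM. The Notch ligand Jag1, the activin subunit Inhba, the latent TGF-β binding protein Ltbp1 and the matricellular Ccn2 were higher in the same way. The 4 hemoglobin genes on this list came from the few erythroid-rich members.

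Of the 12 epicardial list genes, 11 were at least 2-fold lower in members than in Dlk1/Smoc2 cells in both libraries. Summed, the list stood at 68.4 and 24.2 CPM in members and 715 and 462.5 CPM in Dlk1/Smoc2 cells. It stood at 89.15 and 49.2 CPM in Matn4/Col9 and 59.6 and 60.6 CPM in Sfrp2/Angptl7 cells, so low values were not particular to members. Whether the Dlk1/Smoc2 group holds epicardial cells was not tested. Krt19, a keratin, stood at 6.35 and 1.29 CPM against 113 and 62.6 CPM in Dlk1/Smoc2 cells. Upk3b, a uroplakin of mesothelium, stood at 14.7 and 0.214 CPM against 178 and 97.3 CPM, Msln at 9.07 and 0.642 against 101 and 70.6 CPM, and Wt1, the Wilms tumour factor of epicardium, at 15.9 and 17.1 against 67.9 and 63.4 CPM. All 65 control UMIs of Upk3b in members came from at most 5 cells. Fibroblast genes of the adventitia were lower too: Col14a1 stood at 282 and 292 CPM against 797 and 894 CPM, and in both libraries 5 of 20 adventitial list genes were 2-fold lower or more. Of 30 IGF and imprinted genes 6 were lower, among them Dlk1, which the rule of the other group used, Igfbp5 at 201 and 133 CPM against 555 and 551 CPM, and the non-coding Meg3 at 1040 and 1195 CPM against 2661 and 3392 CPM.

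The members were not uniform. They were split by which rule gene had the most UMIs in a cell. Tcf21 led in 353 control members (55.4%) and 211 mutant members (51.2%), Gpc6 in 114 (17.9%) and 62 (15.0%), and Ccn3 in 106 (16.6%, 13.8 to 19.8) and 116 (28.2%, 23.9 to 32.8). In 64 control and 23 mutant members the lead was tied. The Ccn3-led share was the only one of the 3 whose counting intervals did not overlap between the libraries. Male-type cells were 45.7% of mutant Ccn3-led, 41.7% of Tcf21-led and 33.9% of Gpc6-led members.

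The contractile genes Acta2 and Tagln were higher in Ccn3-led and Gpc6-led than in Tcf21-led members. Acta2 stood at 1752 CPM in control and 1389 CPM in mutant Ccn3-led members and at 1391 and 1475 CPM in Gpc6-led members, against 528 and 523 CPM in Tcf21-led members. Tagln stood at 1470 and 946 CPM, 1139 and 1091 CPM, and 445 and 409 CPM in the same order. In both libraries the Tcf21-led cells were lowest for both genes. The mural list summed to 3954 and 3422 CPM in Ccn3-led, 4033 and 4503 CPM in Gpc6-led, and 1358 and 1483 CPM in Tcf21-led members.

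Of the 14 mural list genes, 10 were highest in Gpc6-led members in both libraries, and 0 were highest in Ccn3-led or in Tcf21-led members in both. Of 12 epicardial list genes 1 was highest in Gpc6-led members in both. Of 12 endothelial list genes 2 were, and 2 were highest in Tcf21-led members. The same share over all genes is not given here, so these counts are a description. Kcnj8, a potassium channel of pericytes, stood at 158 and 199 CPM in Gpc6-led members, 42.9 and 85.6 CPM in Ccn3-led and 36.3 and 59.0 CPM in Tcf21-led members. Rgs5 stood at 484 and 668 CPM, 228 and 407 CPM, and 81.4 and 157 CPM in that order. Abcc9, the partner subunit of Kcnj8, stood at 163 and 174 CPM in Gpc6-led members and 39.1 and 59.4 CPM in Tcf21-led ones, and Pdgfrb, the receptor of mural cells, at 278 and 341 CPM and 81.4 and 105 CPM. Mylk, the myosin light chain kinase, the predicted gene Gm13889 and Colec11, a collectin of the complement system, were also highest in Gpc6-led members, Colec11 at 117 and 207 CPM.

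Tcf21-led members carried more Tgfbi, Meox1 and Slc38a5. Tgfbi, a matrix protein induced by TGF-β, stood at 50.7 and 33.8 CPM in Tcf21-led members, 5.53 and 9.01 CPM in Ccn3-led and 5.25 and 3.69 CPM in Gpc6-led members. Meox1, a homeobox factor of mesenchyme, stood at 162 and 129 CPM, 37.3 and 31.5 CPM, and 80.1 and 96.0 CPM in the same order. Slc38a5, an amino acid transporter, stood at 67.8 and 68.8 CPM in Tcf21-led members and at most 26.3 CPM in the others. Ccn3-led members were highest for Tppp3, a tubulin-binding protein, at 56.7 and 104 CPM against 17.95 and 33.4 CPM in Tcf21-led members. Plk2 and Rtl3 leaned to Tcf21-led, Pcdh7 to Ccn3-led, and Fjx1 to Gpc6-led members in both libraries.

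**Figure D3:**
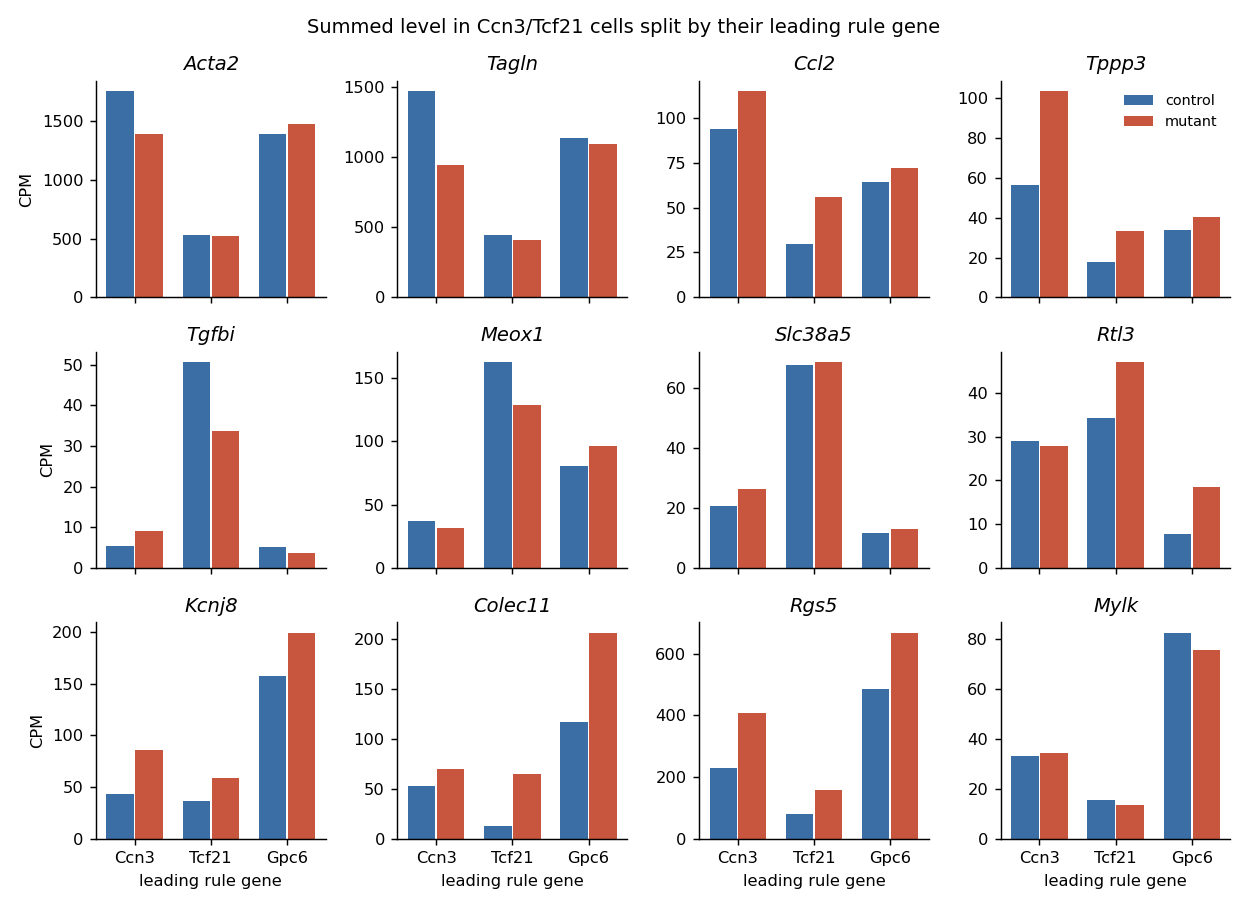
Summed level (CPM) of 12 genes in members led by Ccn3, Tcf21 or Gpc6, with control and mutant bars side by side (1 library each, so no error bar between samples). Acta2 and Tagln were lowest in Tcf21-led members, Kcnj8, Rgs5, Colec11 and Mylk highest in Gpc6-led members, and Tgfbi, Meox1, Slc38a5 and Rtl3 highest in Tcf21-led members, in both libraries.

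Dicer1, the targeted gene, differed little between the libraries in these cells. It stood at 57.3 CPM (50.5 to 64.9) in control and 52.7 CPM (46.3 to 59.7) in mutant members, a log2 ratio of mutant over control of -0.12 (-0.38 to 0.14). Among female-type members alone the ratio was 0.00. In Matn4/Col9 cells it was -0.51 and in Sfrp2/Angptl7 cells -0.54, while in Dlk1/Smoc2 cells it was -0.14. The 3′ reads can come from message that has lost an internal exon, so the level does not show whether a cell recombined. Nfatc1, whose promoter drives the Cre, stood at 27.0 and 26.8 CPM in members against 79.2 and 54.7 CPM in Matn4/Col9 cells, and at 13.3 and 10.8 CPM in Dlk1/Smoc2 cells.

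Transcripts that host microRNAs were measured in the members, although mature microRNAs are not captured by this assay. Mir99ahg stood at 80.9 and 65.1 CPM, Mir100hg at 59.8 and 60.6 CPM, and Dnm3os at 66.6 and 66.8 CPM. These 3 are shown because they carry the best known mesenchymal microRNAs whose maturation needs DICER1. Their mature sequences, from RefSeq on GRCm38.p6, are given 5′ to 3′ with the seed, bases 2 to 8, in capitals.
mmu-miR-99a-5p: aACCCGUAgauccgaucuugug
mmu-miR-100-5p: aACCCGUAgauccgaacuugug
mmu-let-7c-5p: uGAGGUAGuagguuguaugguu
mmu-miR-125b-5p: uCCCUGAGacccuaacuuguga
mmu-miR-199a-3p: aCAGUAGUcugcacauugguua
mmu-miR-214-3p: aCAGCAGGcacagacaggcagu
The first pair, from Mir99ahg on chromosome 16 and Mir100hg on chromosome 9, share the seed ACCCGUA. The hosts also both hold a copy of mmu-miR-125b-5p, and let-7c lies in Mir99ahg. The last pair come from Dnm3os on chromosome 1. Of the 8 host transcripts with a mean of at least 20 CPM, 0 differed by 1.5-fold, and their median log2 ratio was 0.01. Of 14 genes of the microRNA machinery 0 did, with Drosha at 17.7 and 22.5 CPM and Ago2 at 79.8 and 97.2 CPM.

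Few genes differed between the libraries in the members. Of 6069 genes, 12 (0.198%) were at least 2-fold higher in the mutant library and 8 (0.132%) at least 2-fold lower. At 1.5-fold, 45 (0.741%) were higher and 26 (0.428%) lower. Most of the 12 higher genes rested on single cells: Hbb-bs, Hbb-bt, Hba-a1 and Hba-a2 are hemoglobin genes, S100a8, S100a9, Stfa1 and Cstdc5 are granulocyte genes and Lyz2 is a myeloid lysozyme gene. In the mutant library 1 member held 862 of the 882 S100a9 UMIs, and 5 members held 96.85% of the Lyz2 UMIs. Ddx3y is Y-linked and had 0 UMIs in control members. This left Ucp2, whose mean lay just above the floor, and Colec11.

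Without the 13 control and 8 mutant members rich in other types, in the mutant library 3 genes were higher by 2-fold or more and 9 lower. The higher ones were Colec11, Tppp3 and Ddx3y. Ucp2 dropped out through the floor alone: it stood at 8.88 and 26.7 CPM, a mean of 17.8 CPM, with a log2 ratio of 1.57. The lower ones were Ttn, Nnat, Eln, Apoe, Spon1, Ppp1r14c, Kazald1, Tsix and Xist. Xist silences an X chromosome in female cells, and Tsix is transcribed antisense to it. Both move with the sex of the pool, and reads from the pair overlap. Within the mutant library, 34 of 6113 genes (0.556%) were at least 2-fold apart between male-type and female-type members.

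Colec11 stood at 39.4 CPM (33.8 to 45.7) in control and 86.7 CPM (78.5 to 95.6) in mutant members, a log2 ratio of 1.13 (0.88 to 1.40). It was found in 14.6% of control and 30.3% of mutant members. The ratio was 0.96 in female-type cells and between 0.96 and 1.27 over all 10 alternatives, and 1.06 in Dlk1/Smoc2 cells. Tppp3 stood at 29.7 CPM (24.8 to 35.2) and 58.0 CPM (51.3 to 65.4), a log2 ratio of 0.96 (0.66 to 1.28), with 1.16 in female-type cells. Ucp2, a mitochondrial carrier common in myeloid cells, stood at 11.8 and 28.3 CPM, a ratio of 1.25 (0.79 to 1.75). Its ratio was 2.12 between female-type members of the libraries, but -0.07 for male-type mutant against female-type control members, so the Ucp2 difference lay in the female-type mutant members. For male-type mutant against female-type control members the ratio was 1.12 for Colec11, 0.68 for Tppp3 and 0.85 for Htra3. Htra3, a secreted serine protease, stood at 17.0 and 33.4 CPM, a ratio of 0.97 (0.57 to 1.39). The intervals of these 4 ratios lay above 0, which covers counting error in the whole pools only, and the spread between embryos is unknown.

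Smaller differences in the same direction were seen for genes of regulation and matrix. Klf9, a Krüppel-like factor, stood at 24.9 and 42.6 CPM, Mbnl3, a splicing regulator, at 16.3 and 27.8 CPM, and Gnb5, a G protein subunit, at 17.45 and 29.3 CPM, with log2 ratios of 0.77, 0.77 and 0.75. In female-type cells these ratios were 0.57, 0.46 and 0.66. Mbnl3 is X-linked, and within the mutant library it was higher in male-type than in female-type members by 0.60 on the log2 scale. Rgs5 had a ratio of 0.68 (0.56 to 0.81), and Kcnj8 one of 0.52 (0.30 to 0.74). With the led subsets given the same weight in both libraries, the Rgs5 ratio was 0.75. Mfap5, a microfibril protein, stood at 46.5 and 77.9 CPM, and Fndc1, an extracellular protein with fibronectin domains, at 67.5 and 112 CPM, with ratios of 0.74 and 0.72.

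Apoe was the most abundant of the genes lower in the mutant library. It encodes apolipoprotein E, a lipid carrier, and stood at 1185 CPM (1153 to 1217) in control and 458 CPM (439 to 478) in mutant members, a log2 ratio of -1.37 (-1.44 to -1.30). It was found in 70.0% and 65.5% of members, and the upper quartile of members stood at 16.2 and 5.46 UMIs per 10000. The ratio lay between -1.38 and -1.20 over the 10 alternatives. It was -0.86 in Dlk1/Smoc2 cells and -0.99 in Sfrp2/Angptl7 cells, but 0.20 in Matn4/Col9 cells. In endothelial cells, which can hold free RNA, the Apoe ratio was -1.05, and over all kept cells -0.34.

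Eln, which encodes elastin, stood at 312 CPM (295 to 329) and 157 CPM (145 to 168), a log2 ratio of -0.99 (-1.13 to -0.86). It was detected in 56.7% and 61.4% of members. In the 3 subsets it stood at 431 and 119 CPM (Ccn3-led), 212 and 155 CPM (Tcf21-led) and 499 and 277 CPM (Gpc6-led), lower in the mutant library in each. In Dlk1/Smoc2 and Sfrp2/Angptl7 cells the ratio had the opposite sign, at 0.24 and 0.61, and in Matn4/Col9 cells it was -0.28. The Eln ratio was -0.56 in endothelial cells and -0.35 over all kept cells. Mgp, matrix Gla protein, an inhibitor of calcification, stood at 842 CPM (815 to 870) and 434 CPM (415 to 453), a ratio of -0.96 (-1.04 to -0.88), and its ratio was also negative in the other 3 groups, between -0.47 and -0.28. Mgp was lower in the mutant library by more in endothelial cells, at 447 and 185 CPM (a ratio of -1.27), and by about as much over all kept cells, at 1335 and 669.5 CPM (-0.996), and the part of free RNA in the members' ratio was not tested. Whether those differences between groups exceed the spread between embryos was not tested, because each rests on the same 2 libraries.

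Other lower genes were less abundant. Ppp1r14c, a phosphatase inhibitor, stood at 92.0 and 38.1 CPM, a log2 ratio of -1.27 (-1.53 to -1.01). Nnat, an imprinted gene, stood at 33.3 and 13.1 CPM, with a ratio of -1.34 (-1.81 to -0.91) that was -0.65 in female-type cells. Spon1, a secreted spondin, stood at 31.5 and 12.8 CPM, and Kazald1, a secreted relative of the IGF-binding proteins, at 38.1 and 16.9 CPM. Ralgps2 stood at 41.7 and 25.5 CPM. Over all kept cells Nnat stood at 40.6 and 18.8 CPM, Spon1 at 32.1 and 15.25 CPM and Kazald1 at 34.5 and 16.3 CPM. Ppp1r14c and Ralgps2 differed less there, at 140 and 112 CPM and at 51.3 and 45.75 CPM. The ratios of Nnat, Spon1 and Kazald1 were -1.10, -1.45 and -0.92 in Sfrp2/Angptl7 cells. They were -0.70, -0.47 and -0.04 in Dlk1/Smoc2 cells and -0.56, -0.45 and -0.29 in Matn4/Col9 cells. Ttn and Myh7, the sarcomere genes titin and β-myosin, stood at 196 and 53.1 CPM and at 171 and 95.5 CPM, and 5 cells held 74.3% and 59.9% of their control UMIs. Without the members rich in other types the Ttn ratio was -1.12 and that of Myh7 was -0.03.

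**Figure D4:**
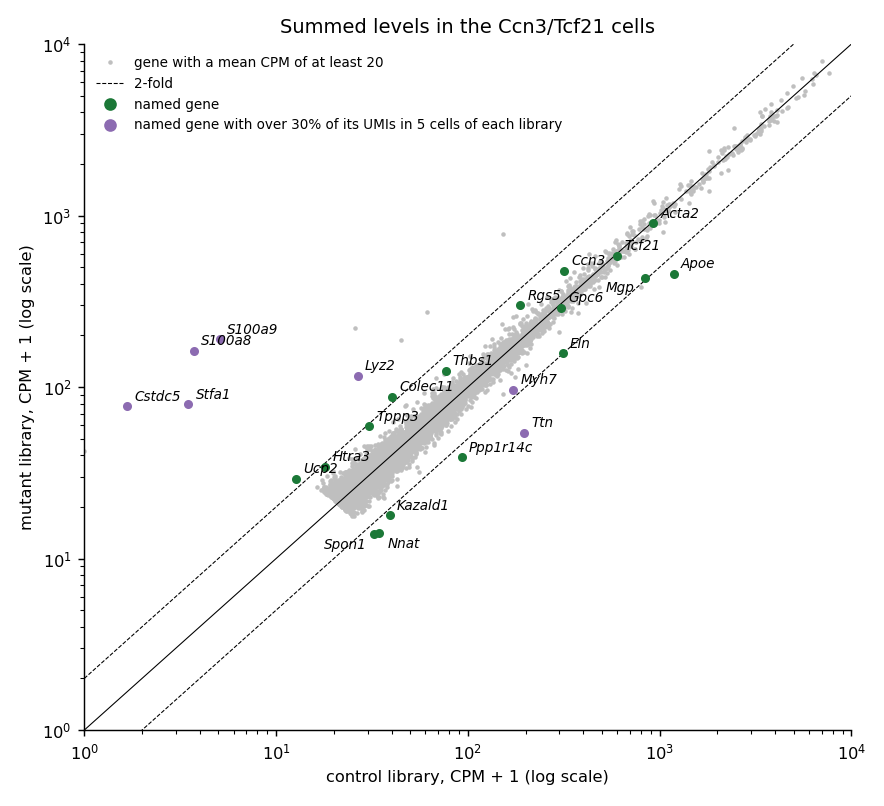
Summed level of each gene with a mean of at least 20 CPM in the Ccn3/Tcf21 cells, control on the x axis and mutant on the y axis (CPM + 1, log scales, 1 library each), with dashed lines at 2-fold. Named genes are green, or purple where over 30% of their UMIs came from 5 cells of each library, and the unlabelled points far above the upper line are hemoglobin genes and, on the left edge, the Y-linked Ddx3y; Apoe, Eln and Mgp lie at or near the lower line and Colec11 at the upper one.

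The marker genes themselves differed little, with 1 exception. Ccn3 stood at 317 CPM (300 to 334) in control and 477 CPM (457 to 497) in mutant members, a log2 ratio of 0.59 (0.49 to 0.69). With the same weight of the led subsets in both libraries the ratio was 0.24. Tcf21 stood at 601 and 582 CPM, with a ratio of -0.05 (-0.13 to 0.03), and Gpc6 at 306 and 289 CPM, with -0.08 (-0.19 to 0.03). Ratios of these 3 genes are a description, since the rule selected on them. Fhl1, Sct and Msc had ratios of 0.36, 0.34 and 0.20.

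Lists of related genes are given by the members at least 1.5-fold apart, beside 0.741% higher and 0.428% lower over all genes and a median log2 ratio of 0.00. Of 20 measured cardiac fibroblast and epicardium-derived genes 0 were apart, with a median of 0.10. Tbx20, a T-box factor of valve mesenchyme, stood at 538 and 542 CPM, and Tbx18, of epicardium and its descendants, at 160 and 177 CPM. Of 16 helix-loop-helix factors 0 were apart (median -0.06), nor were any of 24 cushion and valve transcription factors (median -0.03), among which Sox9 stood at 463 and 451 CPM. Twist1, a helix-loop-helix factor of mesenchyme, was nearest to the line at 102 and 75.8 CPM.

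Families of the rule genes were covered next. Of 4 measured CCN genes only Ccn3 was apart, and Ccn1 stood at 144 and 133 CPM. Of 15 glypicans, syndecans and heparan sulfate enzymes 0 were apart (median 0.00), with Gpc3 at 263 and 221 CPM. Of 15 FHL and LIM-domain genes 0 were apart (median 0.07). Of 4 secretin-type peptides and receptors 1 was higher, Calcrl, the receptor of adrenomedullin and CGRP, at 16.5 and 26.5 CPM, while the secretin receptor Sctr had 0 CPM in both libraries.

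Matrix genes showed single members apart rather than whole lists. Of 14 collagens 2 were lower, Col12a1 at 54.8 and 31.0 CPM and Col8a1 at 33.3 and 21.8 CPM, while Col1a1 stood at 2164 and 2398 CPM and the list's median was 0.12. In female-type cells the log2 ratio was -0.43 for Col12a1 and -0.35 for Col8a1, both under 1.5-fold. Of 16 elastic fibre genes Mfap5 was higher and Eln lower (median -0.05), with Fbn1, fibrillin 1, at 486 and 540 CPM. Of 13 basement membrane genes 0 were apart, but the median was 0.21 and 12 of 13 ratios were above 0, with Col15a1 at 259 and 336 CPM. Basement membrane medians were 0.24, 0.37 and 0.22 in Matn4/Col9, Sfrp2/Angptl7 and Dlk1/Smoc2 cells. Of 10 proteoglycans and hyaluronan genes 0 were apart (median -0.09), nor were any of 5 tendon-type (0.05) or 5 cartilage-type genes (-0.23).

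Of 19 matrix proteases and inhibitors Htra3 was higher (median 0.05), and Adamts5, an aggrecanase, lay just under the line at 101 and 151 CPM. Of 9 adventitial genes Mfap5 and Fndc1 were higher and Igfbp5 lower (median 0.26). The Igfbp5 ratio of -0.59 was -0.19 without the members rich in other types. Of 12 contractile genes Actg2, enteric smooth muscle actin, was higher at 28.6 and 43.9 CPM (median -0.02), while Acta2 had a ratio of -0.03. Of 11 ion channel, receptor and adhesion genes 0 were apart (median 0.10).

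Signalling lists were close to the background. Of 12 PDGF and FGF genes (median 0.08), 15 BMP and TGF-β genes (median -0.14), 9 retinoid, hedgehog and Notch genes (median 0.03) and 13 guidance genes (median 0.03), 0 were apart. Of 7 WNT genes, 2 secreted inhibitors were lower, Sfrp1 at 175 and 114 CPM and Sfrp2 at 151 and 89.7 CPM, with ratios of -0.62 and -0.75. Sfrp2 enters the gene sum of the Sfrp2/Angptl7 group, which had to lie below the members' own sum, so its level and ratio are conditioned by the rule and are a description. Of 22 IGF and imprinted genes 3 were lower, Igf1 at 35.4 and 21.4 CPM, Igfbp5 and Nnat, and the median was 0.13. In female-type cells the Igf1 ratio was -0.17. Of 7 chemokine and complement genes Ccl2 was higher (median 0.09), and in female-type cells its ratio was -0.22.

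Stress, growth and lipid lists were similar. Of 19 immediate early and dissociation genes Hspa1a was higher, at 18.1 and 27.4 CPM (median 0.14), with a ratio of -0.12 in female-type cells. Of 18 unfolded protein response genes (median 0.14), 15 cell cycle genes (median 0.02) and 13 annexins and S100 genes (median 0.15), 0 were apart. Of 14 lipid genes Apoe was lower and the median was 0.24, with Lpl, lipoprotein lipase, at 171 and 256 CPM.

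Genes known as targets of let-7 were looked at because DICER1 makes that microRNA. Of 19 measured, 1 was higher, Thbs1, the matricellular thrombospondin 1, at 75.5 and 124 CPM with a ratio of 0.71 (0.52 to 0.91), and 0 were lower. The list's median was 0.08, against 0.30 in Matn4/Col9, 0.20 in Sfrp2/Angptl7 and -0.06 in Dlk1/Smoc2 cells. Hmga2, a target with several let-7 sites, had a ratio of 0.31 (0.14 to 0.47) in members, 1.46 in Matn4/Col9 cells, 1.17 in Sfrp2/Angptl7 cells and 0.17 in Dlk1/Smoc2 cells. Its control level was highest in the members, 119 CPM against 14.03, 47.4 and 37.2 CPM in those groups. The ratios share both libraries and stand side by side without a test.

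Among abundant genes a smaller share was apart between the libraries in members than in the 2 valve interstitial groups, a difference that was not tested. Among genes with a mean of at least 100 CPM, leaving out mitochondrial, ribosomal, erythroid and sex genes, 3 were 1.5-fold higher and 8 lower of 1468 in members, 0.749% in all. In Dlk1/Smoc2 cells the share was 0.422% of 1423 genes, in Sfrp2/Angptl7 cells 2.09% of 1532 and in Matn4/Col9 cells 3.87% of 1575. The counted UMIs differed too: members held 4412702 and 4670971 UMIs, and mutant Sfrp2/Angptl7 cells only 1881607, so their ratios carry more counting error.

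**Figure D5:**
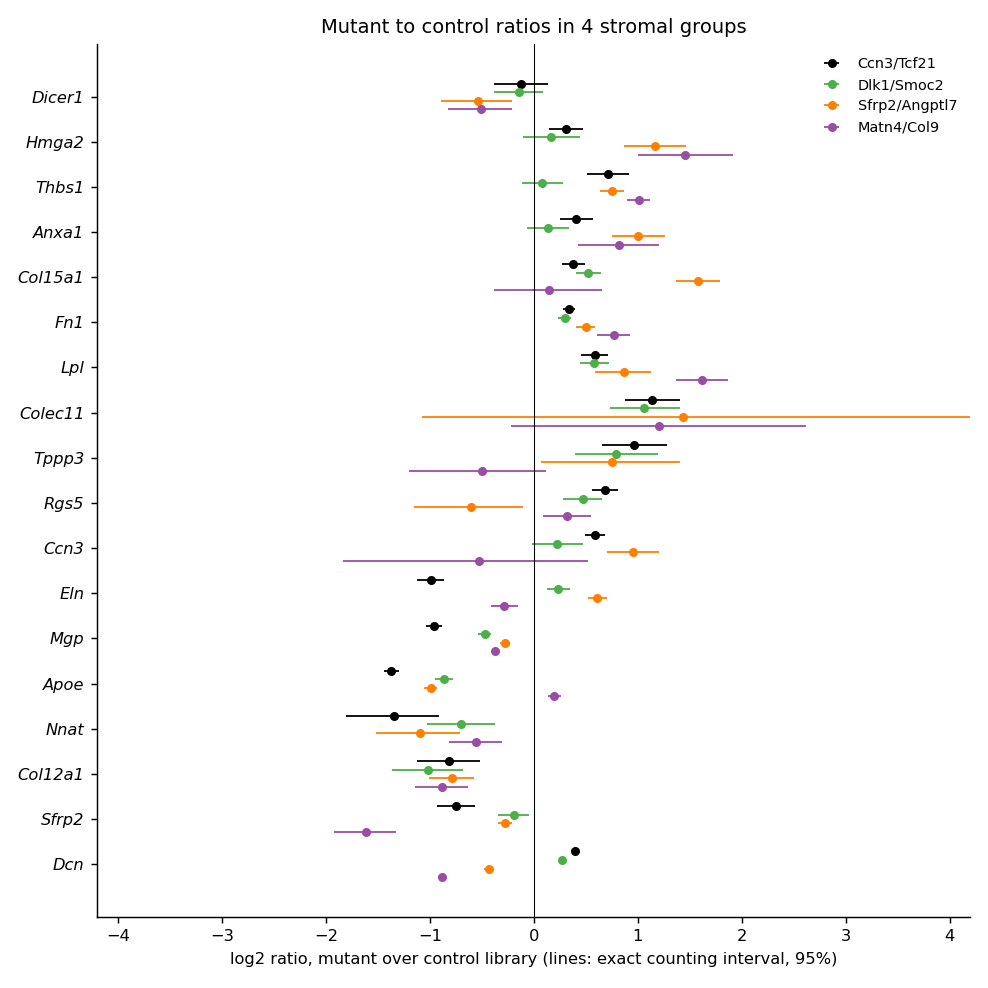
Log2 ratio of mutant over control for 18 genes in the Ccn3/Tcf21 cells and 3 other stromal groups, with exact 95% counting intervals as lines; the groups share both libraries. In the Ccn3/Tcf21 cells Dicer1 sits at -0.12 and Hmga2 at 0.31, nearer to the Dlk1/Smoc2 cells than to the 2 other groups, and Eln lies at -0.99 while Dlk1/Smoc2 and Sfrp2/Angptl7 cells lie above 0.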

How the data were processed

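The deposited files hold counts, UMIs per gene and barcode, which the authors produced on mm10 with Cell Ranger 5.0.0 according to the submitters' processing notes; both list 32285 genes. Barcode filtering by the authors, counting options and the annotation release are not given in the sources used here. Cells were selected with the rule stated in the report, and each library was summed over its members. Cells are not replicates, so no test was made.

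CPM is the summed count per 1000000 summed UMIs. The log2 ratio adds 0.5 counts to each library and carries an exact conditional Poisson interval; CPM has exact Poisson and shares exact Clopper-Pearson intervals, all at 95%. Genes with a mean of at least 20 CPM were compared, at 2-fold for single genes and 1.5-fold for list members. Against other groups, 1 CPM was added before the ratio. Doublets were called per library with Scrublet in scanpy 1.11.5 at an expected 0.8% per 1000 barcodes. Scrublet called 462 control (4.29%) and 213 mutant (3.33%) kept barcodes, below the expected 8.61% and 5.12%, and all stayed in. Endothelial cells were kept barcodes with at least 10 UMIs of Pecam1, Cdh5 and Egfl7 and with the 3 collagen genes under 30 of every 10000 UMIs. Members rich in other types held at least 10 UMIs of macrophage, granulocyte, erythroid, epicardial and melanocyte genes together, or at least 2% of UMIs from cardiomyocyte genes. Female-type cells had Xist and no Y-linked UMI, male-type cells the reverse.

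Genes were named by rule: the 6 markers, Dicer1 and Nfatc1; the 20 highest against all other stromal groups; the 12 highest and 12 lowest mutant to control ratios whose higher CPM was at least that over all kept cells divided by 5; the 6 leading each subset; and, of each list, the most abundant and the most different members. Erythroid, mitochondrial, ribosomal protein, sex and unnamed predicted genes were left out of the mutant to control ranking. Genes compared with Dlk1/Smoc2 cells, and the mural genes named singly, were chosen after their values were seen. The granulocyte markers and the rich-cell criterion were added after seeing the data. The members and the 33 lists were chosen with earlier results of these data known, and 4 list symbols were not found. GENCODE M21 on GRCm38 gave coordinates for 32158 identifiers. The calculations were checked on simulated data. Software was python 3.11.15, numpy 2.4.6, scipy 1.17.1 and pandas 2.3.3.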

Additional observations from a re-analysis of the deposited data

How the results depend on the processing

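No paired analysis was possible because each genotype has 1 library, so nothing here measures the spread between embryos. Depth, sex of the pool and genotype coincide, and mature microRNAs, recombination and cell position were not measured.

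The control share of 15.6% was 12.7% with a sum of at least 5, 13.7% with a lead of at least 2 UMIs, 13.9% with a collagen gate of 60 per 10000 and 7.75% after thinning. The mutant share of 23.7% was 19.7% in female-type cells and 13.2% after thinning. Other alternatives moved these shares by less than their counting intervals. The 12 genes at least 2-fold higher became 3 without members rich in other types, an alternative chosen after seeing the data, and 46 with a floor of 5 CPM. The 8 lower genes became 46 with a floor of 5 CPM and 4 with a floor of 50 CPM. A lower floor tests more genes of few counts. At 3-fold in place of 2-fold, 1 gene stood above every other group.

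Of 690 ratios of 69 named genes under 10 alternatives, 47, of 20 genes, changed sign: 9 of ratios that were at least 1.5-fold, given next, and 38, of 14 genes, of ratios no larger than 0.39 on the log2 scale. Apart from those 9, 61 values left the counting interval. In female-type cells the log2 ratio was -0.22 for Ccl2, -1.51 for Cstdc5, -0.12 for Hspa1a, -0.13 for S100a9 and -1.64 for Stfa1. Without members rich in other types it was -0.084 for Cstdc5, -0.32 for Stfa1 and 0.17 for Pf4, and with doublet calls left out 0.15 for Pf4. The cause was not tested. Of 363 list medians, 16 moved by 0.1 or more.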
